A study of Mus musculus with 13 samples.

Results

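Bleomycin raised 2 secreted matricellular genes of the CCN family, Ccn2 and Ccn4, in the mouse lung. In library-scaled counts both were lower in every bleomycin-treated lung labelled CB1R KO than in every bleomycin-treated wildtype lung, as was Ankrd1, a target gene of the YAP and TAZ coactivators, but none of these 3 differences passed the adjusted threshold of the main test. Of the coactivators, Yap1 fell and Wwtr1, the gene of TAZ, rose by small amounts after bleomycin, and neither passed between the genotypes. The genes described are 9 of the 20270 symbols in the deposited count and TPM tables, taken by symbol from a list of names: the CCN family members Ccn1, Ccn2, Ccn3, Ccn4 and Ccn5, the coactivators Yap1 and Wwtr1, and the pathway genes Ankrd1 and Amotl2. All 9 passed the filter on low counts that left 15315 genes for testing.

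The RNA came from the lower right lung lobe of 13 mice. Control mice (n = 4, numbered 3, 21, 24 and 26) were wildtype and received saline. WT bleomycin mice (n = 5, numbered 4, 2, 5, 4-B2 and 7) were wildtype and received a single oropharyngeal dose of bleomycin at 1 U per kg. CB1R KO bleomycin mice (n = 4, numbered 8, 9, 10 and 11) carried a Cnr1-/- deletion and received the same dose. Both bleomycin groups were sampled 14 days after the dose. The mice were 13-week-old C57BL/6J males, and the Cnr1-/- line was on the C57BL/6J background. The age and sex of the knockout mice are not given separately in the sources used here. The sources used here name no cell type for the deletion. CB1R KO lungs without bleomycin were not analysed here, so a baseline difference between the genotypes and a different response to the injury cannot be told apart. Lung function was measured in the mice before the tissue was taken.

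CCN proteins are secreted, cysteine-rich matricellular proteins that bind integrins, proteoglycans and growth factors. Ccn1 and Ccn2 (formerly Cyr61 and Ctgf) are short-lived early-response transcripts and textbook targets of YAP and TAZ, and Ccn2 is also induced by TGF-beta in fibroblasts. Ccn3 (Nov) often moves against Ccn2, Ccn4 (Wisp1) is a Wnt-inducible member, and Ccn5 (Wisp2) lacks the C-terminal module of its relatives. YAP and TAZ are coactivators without a DNA-binding domain that act through TEAD transcription factors. The Hippo kinases, from Stk3 and Stk4 to Lats1 and Lats2, phosphorylate them and hold them out of the nucleus, so that much of their control lies in protein localisation, which RNA levels do not measure. Ankrd1 encodes a nuclear and sarcomeric ankyrin-repeat protein that is abundant in cardiac muscle, and Amotl2 encodes an angiomotin that binds YAP and is itself a YAP target.

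TEAD factors recognise the letters GGAATG, which read CATTCC on the opposite strand. The RefSeq promoter table (GRCm38.p6, another build than the GRCm39 of the deposited values) held 5 of the 9 genes, and both orientations were searched in the 250 bases before each annotated start. All 5 genes had the letters in a window: once per window in Ccn1, Yap1, Wwtr1 and Amotl2, and at 2 places in Ankrd1. Of all 27025 genes with a window 14.4% had them, and of all 32851 windows 12.6%. In GENCODE M21 all 250 bases of the Ankrd1 window and 136 bases of the Amotl2 window lie in annotated exons of the same gene, so these are windows before the RefSeq start and not promoters in every annotation. The AP-1 letters TGANTCA, often found near TEAD sites, were in the windows of none of the 5 genes and of 7.82% of all genes. The sequences are shown because these genes are the ones through which the pathway is usually read. Capitals mark the TEAD letters, each line runs 5′ to 3′ on the strand of the gene, and the position of the first capital is counted back from the annotated start. A match in letters is a description and not a bound site.

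Ccn1 (chr3:145649986-145650235, minus strand, 1 match, at -103): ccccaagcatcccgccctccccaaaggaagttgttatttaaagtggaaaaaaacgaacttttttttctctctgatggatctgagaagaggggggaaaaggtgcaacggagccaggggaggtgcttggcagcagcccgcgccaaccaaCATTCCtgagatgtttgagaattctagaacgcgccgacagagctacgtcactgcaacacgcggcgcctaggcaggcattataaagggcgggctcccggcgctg
Wwtr1 (chr3:57575911-57576160, minus strand, 1 match, at -136): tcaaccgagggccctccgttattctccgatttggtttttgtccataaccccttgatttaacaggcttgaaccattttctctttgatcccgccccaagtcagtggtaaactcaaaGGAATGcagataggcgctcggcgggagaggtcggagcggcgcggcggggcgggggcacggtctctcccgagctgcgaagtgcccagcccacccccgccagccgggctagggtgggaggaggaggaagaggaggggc
Ankrd1 (chr19:36120037-36120066, minus strand, at -210): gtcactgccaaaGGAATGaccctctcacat
Ankrd1 (chr19:36119950-36119979, minus strand, at -123): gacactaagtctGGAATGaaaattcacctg
Amotl2 (chr9:102717727-102717756, plus strand, at -65): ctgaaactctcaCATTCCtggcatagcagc
Yap1 (chr9:8004720-8004749, minus strand, at -141): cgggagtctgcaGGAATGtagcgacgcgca

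Wwtr1 had a second annotated start, for which the same letters lay at -170. The same letters were in the windows of 6 of the 15 genes of the YAP/TAZ target list that had a window, which were Amotl2, Ankrd1, Axl, Ccn1, Crim1 and Ptpn14, beside the 14.4% of all genes. They were in the windows of 3 of 13 Hippo kinases and adaptors and 4 of 6 TEAD and Vgll genes. Of the list of proteins that bind or regulate YAP, 4 of 7 genes with a window had them. Amotl2 and Ptpn14 are counted both as targets and in that list. Of the 6 target genes with the letters, bleomycin raised Axl and lowered Amotl2, Crim1 and Ptpn14. Ccn1 and Ankrd1 stayed short of the threshold, so that genes with the letters stood on both sides of 0.

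Of the 13 libraries, 12 held between 14615904 and 16662580 estimated counts and CB1R KO 11 held 53463884. Lung markers were present throughout: the summed level of 5 type II cell markers was between 18588 and 36481 TPM (a level scaled for transcript length and library total), and that of 5 endothelial markers was between 1029 and 1942 TPM. Cnr1 was at 27.0 to 69.0 estimated counts in Control, 50.0 to 110.0 in WT bleomycin and 41.0 to 188.0 in the libraries labelled CB1R KO. Relative to the library total these were 1.62 to 4.18, 3.42 to 7.06 and 2.47 to 5.64 CPM without TMM scaling, so the groups overlapped. Where these reads lie relative to the deleted part is not known here, so Cnr1 does not check the genotype, and the labels are used as given. The titles of 3 libraries, Control 26, WT bleomycin 4-B2 and WT bleomycin 7, are written in mixed case and the other titles in lower case. The labels do not say what this style stands for, and no CB1R KO library has it. GENCODE M21 (GRCm38) places exon bases of a noncoding transcript on the opposite strand of Ccn2 and of Yap1. Strand is not stated for these libraries, so reads of the 2 partners cannot be told apart.

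The first question was how the injury itself moved these genes. Between WT bleomycin and Control, 5 of the 9 genes passed an adjusted p of 0.05 in edgeR (quasi-likelihood F test, p-values adjusted after Benjamini and Hochberg over 15315 genes), against 48.9% of all genes tested. Higher were 3 of the 9, Ccn2, Ccn4 and Wwtr1, where 25.0% of all genes were higher. Lower were 2, Yap1 and Amotl2, where 23.9% of all genes were lower. With nearly as large a share of the genome called, the number of calls does not set the 9 genes apart, and the description lies in which of them moved and by how much. Their median log2 fold change was 0.16, and that of all genes tested was -0.01. The share of all genes whose ranges stood apart from Control was not counted, here or for the CB1R KO lungs. Levels below are CPM (the counts scaled to a common library total, after TMM), and because lung pieces of many cell types were sequenced, fewer cells of a type and less RNA per cell cannot be told apart.

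Ccn4 changed most. It was at 11.7, 9.97, 8.07 and 3.29 CPM in Control 3, 21, 24 and 26, and at 42.6, 53.9, 42.7, 59.4 and 53.3 CPM in WT bleomycin 4, 2, 5, 4-B2 and 7. The groups lay far apart, and the highest Control library was well under the lowest treated one. Its mean rose from 8.26 ± 3.63 CPM (SD, n = 4) to 50.4 ± 7.43 CPM (SD, n = 5), a log2 fold change of 2.60 (SE 0.30, edgeR adjusted p = 8e-06). Under the alternatives of the analysis the value lay between 2.19 and 2.82 and passed in all 25.

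Ccn2 was far more abundant and rose less in proportion. Control 3, 21, 24 and 26 held 206, 413, 378 and 422 CPM of Ccn2, and WT bleomycin 4, 2, 5, 4-B2 and 7 held 595, 553, 639.7, 718 and 798 CPM. No treated library reached down into the Control range, and Control 3 lay well under the other 3 controls. The mean was 355 ± 101 CPM (SD, n = 4) in Control and 661 ± 98.1 CPM (SD, n = 5) in WT bleomycin, with a log2 fold change of 0.90 (SE 0.18, edgeR adjusted p = 0.000811). It was 0.71 without Control 3, the lowest value of the 25 alternatives, which reached 0.98, and it passed in all 25.

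The other 3 CCN genes did not pass. Ccn1, the relative of Ccn2 that shares its regulation in textbooks, was at 370.2, 261, 341 and 475 CPM in the 4 Control libraries and at 277, 422, 343, 284 and 389.5 CPM in the 5 WT bleomycin libraries, in the order of the mouse numbers given above. The groups overlapped almost entirely, and the log2 fold change was -0.08 with a 95% interval from -0.39 to 0.23. Ccn1 was highest in Control 26, and its sign was positive without that library (0.08). Ccn3 was between 11.5 and 13.2 CPM in Control and between 7.54 and 11.6 CPM in WT bleomycin, and only WT bleomycin 7 reached the Control range. Its log2 fold change of -0.44 (SE 0.18) missed the threshold in edgeR (adjusted p = 0.0548) and passed in 8 of 25 alternatives, where the adjusted p lay between 0.00552 and 0.132. Leaving out WT bleomycin 7 (0.03), CB1R KO 8 (0.0418), CB1R KO 10 (0.0355) or CB1R KO 11 (0.048) each brought that adjusted p under the threshold. Ccn5 was between 44.6 and 62.5 CPM in Control and between 53.2 and 65.0 CPM in WT bleomycin, with a log2 fold change of 0.16 and an interval from -0.05 to 0.37. The sixth member, Ccn6, was too low to test, with 1.0 to 12.3 estimated counts per library.

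The coactivators moved in opposite directions and by small amounts. Yap1 was at 155, 138, 155 and 149 CPM in Control and at 133, 132, 134, 133 and 129.5 CPM in WT bleomycin, and every treated library was below every control. The spread in the treated group was only 1.57 CPM (SD, n = 5). Yap1 fell by 0.18 on the log2 scale (SE 0.05, edgeR adjusted p = 0.00991), and it no longer passed with limma on log2 TPM (adjusted p = 0.0636 with a pseudocount of 1) or in the lower-case libraries alone (0.0828), in a range over all alternatives from 0.00182 to 0.0828. Wwtr1 was at 186, 169.6, 203 and 179 CPM in Control and at 219.8, 228, 214, 226 and 216 CPM in WT bleomycin, again without overlap. It rose by 0.26 on the log2 scale (SE 0.06, edgeR adjusted p = 0.00178) and passed in all 25 alternatives.

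**Figure D1:**
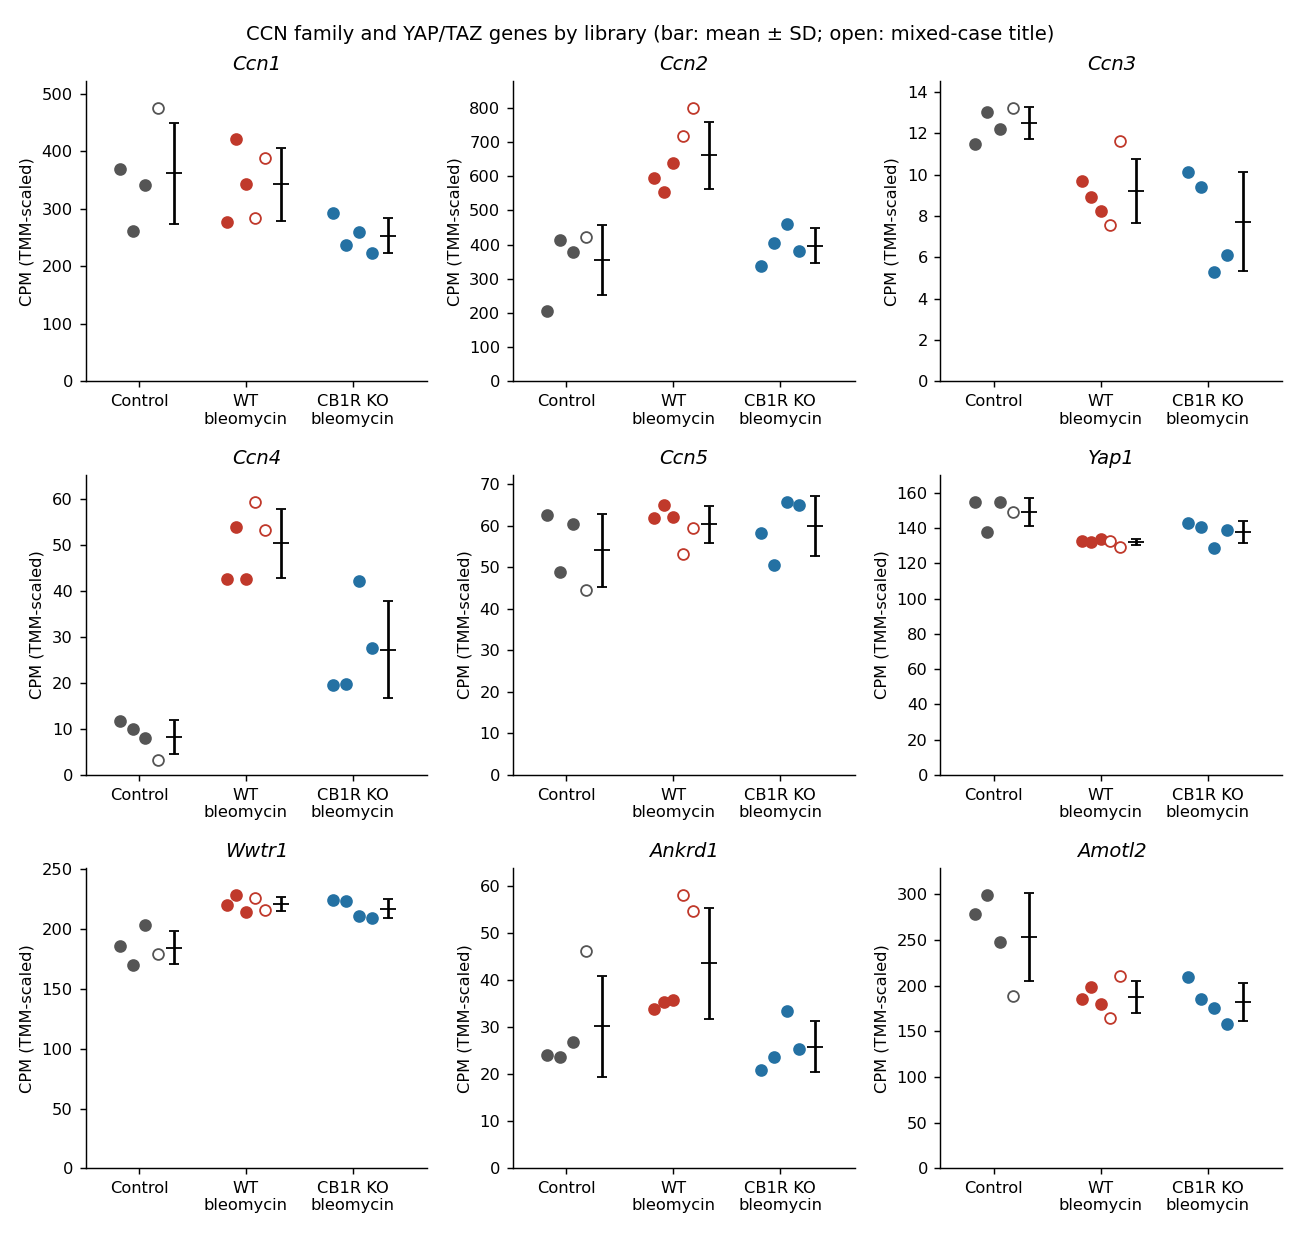
Each panel shows 1 gene, with CPM after TMM scaling on the vertical axis from 0 and 1 point per library (4 Control, 5 WT bleomycin, 4 CB1R KO bleomycin), mean ± SD as the black bar and open points for libraries with mixed-case titles. Ccn2 and Ccn4 stand apart between Control and WT bleomycin, the 4 CB1R KO points of Ccn2, between 338 and 460.2 CPM, all lie below the 5 WT bleomycin points, and the open points of Ankrd1 are the highest of their groups.

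Both intracellular target genes showed larger spreads. Ankrd1 was at 24.0, 23.7, 26.8 and 46.1 CPM in Control 3, 21, 24 and 26 and at 33.8, 35.4, 35.7, 58.0 and 54.7 CPM in WT bleomycin 4, 2, 5, 4-B2 and 7. The 3 highest values, 46.1, 58.0 and 54.7 CPM, belong to the 3 libraries with mixed-case titles. Pooled, the log2 fold change was 0.53 (SE 0.22, edgeR adjusted p = 0.0632). Among the lower-case libraries, Control was at 23.7 to 26.8 CPM and WT bleomycin at 33.8 to 35.7 CPM, with no overlap, a log2 fold change of 0.50 (SE 0.14) and an adjusted p of 0.0188. With title style as a term in the fit the change was 0.43 (SE 0.11, adjusted p = 0.0063). It was 0.80 without Control 26 (adjusted p = 0.00507) and 0.61 without WT bleomycin 4 (adjusted p = 0.0445). Over all 25 alternatives the adjusted p lay between 0.00507 and 0.167, and 8 passed. The mixed-case libraries hold only 1 Control and 2 WT bleomycin mice, too few for a test of their own.

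Ankrd1 is also a heart muscle gene, so the cardiac markers are given beside it. The 7 cardiac markers (Myh6, Myl7, Actn2, Tnnt2, Tnni3, Nppa and Ryr2) were measured in all libraries and none was at 0. Their summed level was 511 to 1367 TPM in Control, 111 to 371 TPM in WT bleomycin and 362 to 650.1 TPM in CB1R KO bleomycin. All 7 fell between Control and WT bleomycin past the adjusted threshold in edgeR (median log2 fold change -1.97), where 23.9% of all genes fell. Ankrd1 itself had a log2 fold change of 0.53 there and did not pass. Among the CB1R KO lungs the 7 markers were higher than in WT bleomycin, by a median log2 difference of 0.90. Ankrd1 differed by -0.75 in that comparison and did not pass. Of the 7, 0 were past the adjusted threshold in edgeR, where 0.979% of all genes were, and 6 had an unadjusted p under 0.05. The share of all genes higher at that level was not counted. Control 26 held both the highest Ankrd1 of the controls and the highest cardiac sum of all libraries. The part of cardiac muscle in the Ankrd1 values was not tested.

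Amotl2 was at 278, 299, 248 and 189 CPM in Control and at 185, 199, 179.6, 165 and 211 CPM in WT bleomycin. Control 26 fell within the treated range and the other 3 controls lay above it. Amotl2 fell by 0.43 on the log2 scale (SE 0.12, edgeR adjusted p = 0.00762) and passed in all 25 alternatives. Endothelial markers are named here because angiomotins are strongly expressed in endothelium. Over the same comparison 5 of 5 fell in edgeR, where 23.9% of all genes fell. Their summed level was 1498 to 1942 TPM in Control and 1029 to 1233 TPM in WT bleomycin. The part of endothelium in the Amotl2 values was not tested.

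The second question was whether the injured lungs differed by genotype. No member of the 9 passed an adjusted p of 0.05 between CB1R KO bleomycin and WT bleomycin in edgeR, where 0.979% of all genes tested did. At an unadjusted p under 0.05, 4 of the 9 were lower in CB1R KO (Ccn1, Ccn2, Ccn4 and Ankrd1), where 9.08% of all genes were, and none of the 9 was higher. DESeq2 on all libraries, the kind of test the study used, called 2 of the 9, Ccn2 and Ankrd1, and called 4.10% of the genes it tested. DESeq2 on the 2 groups called 4, edgeR on the 2 groups 1, and limma on log2 TPM 0. The share of all genes called was not counted for these last fits, so their counts are not read as a result about the 9 genes. The 3 genes Ccn2, Ccn4 and Ankrd1 had each of the 4 CB1R KO values below each of the 5 WT bleomycin values, which was the case for 3.10% of all genes tested. The median log2 fold change of the 9 genes was -0.27, and that of all genes was 0.00.

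Ccn2 came nearest to the threshold. CB1R KO 8, 9, 10 and 11 held 338, 406, 460.2 and 382 CPM, against a lowest value of 553 CPM in WT bleomycin. These 4 values lay within or just above the Control range of 206 to 422 CPM, where only CB1R KO 10 exceeded the highest control. The mean of 397 ± 50.7 CPM (SD, n = 4) gave a log2 fold change of -0.74 against WT bleomycin (SE 0.18, unadjusted p = 0.000901, edgeR adjusted p = 0.0638). The call depended on the fit: the adjusted p was 0.00269 with DESeq2 on all libraries, 0.0341 with edgeR on the 2 groups, 0.0145 without Control 3 and 0.0348 without CB1R KO 10, and over 25 alternatives it lay between 1.14e-06 and 0.315. The log2 fold change itself stayed between -0.81 and -0.59. Its smallest size came with the mixed-case libraries left out or fitted as a term (-0.59 in both), because WT bleomycin 4-B2 and 7 held the 2 highest values.

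Ccn4 was at 19.5, 19.7, 42.1 and 27.7 CPM in CB1R KO 8, 9, 10 and 11, and the lowest WT bleomycin library was at 42.6 CPM. CB1R KO 10 therefore all but met the WT range, and on the TPM scale, where it held 12.7 TPM against a WT bleomycin minimum of 12.3 TPM, the ranges overlapped. Against WT bleomycin the log2 fold change was -0.89 (SE 0.27, unadjusted p = 0.00488, edgeR adjusted p = 0.121). Without CB1R KO 10 it was -1.16 and passed (adjusted p = 0.0256), and over all alternatives the adjusted p lay between 0.00208 and 0.298. In type II cell markers CB1R KO 10 also stood nearest to WT bleomycin. Its 5 markers summed to 23201 TPM, the WT bleomycin libraries reached 22156 TPM, and the other 3 CB1R KO libraries had 32434 to 36481 TPM. The 7 fibroblast markers summed to 2482 TPM in CB1R KO 10, within the WT bleomycin range of 2258 to 2966 TPM. In CB1R KO 8, 9 and 11 they summed to 1716, 1691 and 2193 TPM. The smooth muscle sum of CB1R KO 10, at 583 TPM, lay under the WT bleomycin minimum of 619 TPM. The part of these cells in the Ccn4 values was not tested.

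Ankrd1 was at 20.9, 23.6, 33.5 and 25.3 CPM in CB1R KO 8, 9, 10 and 11, with CB1R KO 10 just under the lowest WT bleomycin value of 33.8 CPM. The log2 fold change was -0.75 (SE 0.22, unadjusted p = 0.00464, edgeR adjusted p = 0.119). All CB1R KO libraries have lower-case titles, and against the 3 lower-case WT bleomycin libraries alone the difference was -0.44 (SE 0.13, adjusted p = 0.295). With title style as a term it was -0.40 (SE 0.12, adjusted p = 0.167), the smallest size of all settings. DESeq2 on all libraries gave -0.75 with an adjusted p of 0.0251. The adjusted p lay between 0.00696 and 0.295 over 25 alternatives, of which both DESeq2 fits passed.

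Ccn1 was lower on average and overlapped. CB1R KO 8, 9, 10 and 11 held 293, 237, 260.3 and 223 CPM, and the WT bleomycin libraries began at 277 CPM. CB1R KO 8 alone reached that range. The log2 fold change was -0.44 (SE 0.16, unadjusted p = 0.0153, edgeR adjusted p = 0.184), and 1 of 25 alternatives passed, DESeq2 on the 2 groups (adjusted p = 0.039, in a range up to 0.36).

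The other 5 genes did not pass between the genotypes either, and none of them had an unadjusted p under 0.05 in edgeR. The log2 fold change of Ccn3 was -0.27 with an interval from -0.63 to 0.09, and its CB1R KO libraries split into 10.1 and 9.41 CPM (CB1R KO 8 and 9) and 5.28 and 6.11 CPM (CB1R KO 10 and 11). Ccn5 differed by -0.01 (interval -0.22 to 0.20), Yap1 by 0.06 (interval -0.04 to 0.16), Wwtr1 by -0.03 (interval -0.14 to 0.08) and Amotl2 by -0.04 (interval -0.28 to 0.19). The intervals of Yap1 and Wwtr1 are the narrowest of the 9. All intervals take the normal quantile, which with 13 libraries makes them narrower than a t quantile would. Their ends are therefore not firm bounds on a genotype difference in either coactivator mRNA.

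**Figure D2:**
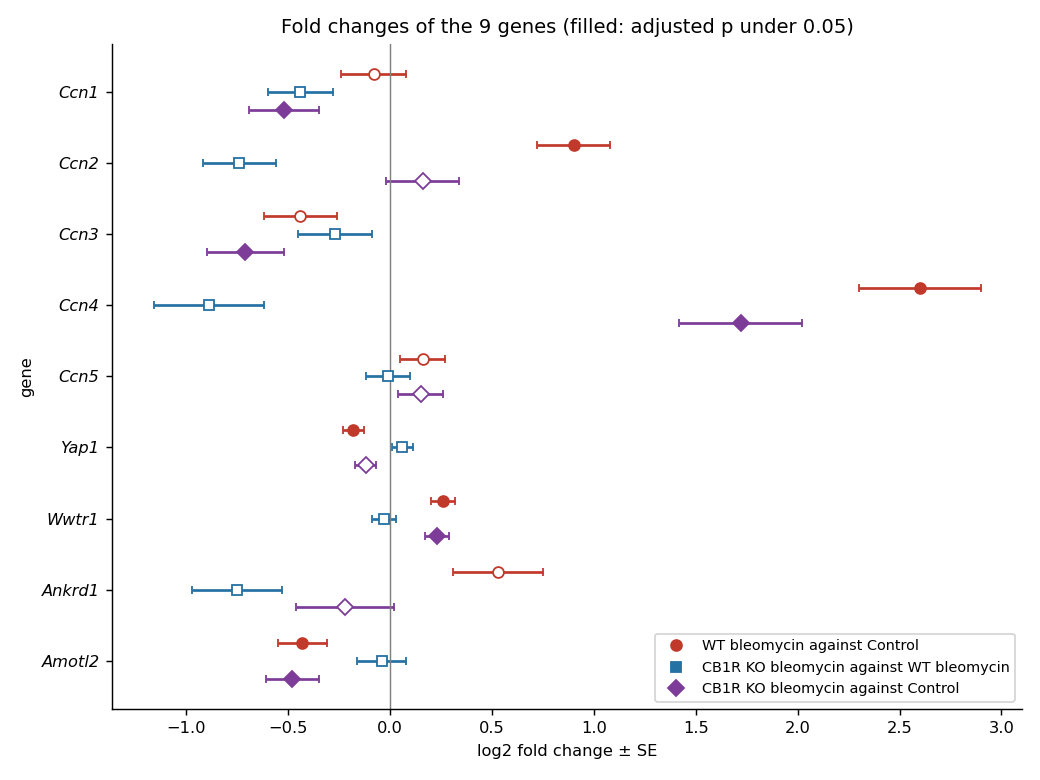
Log2 fold change (horizontal axis) with its standard error for the 9 genes in the 3 comparisons, with filled symbols for an adjusted p under 0.05 in edgeR. The squares of Ccn1, Ccn2, Ccn4 and Ankrd1, CB1R KO against WT bleomycin, lie between -0.89 and -0.44 and are open, and those of Ccn5, Yap1, Wwtr1 and Amotl2 lie between -0.04 and 0.06.

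The third comparison set the CB1R KO bleomycin lungs against Control. It shares its Control libraries with the first comparison and its CB1R KO libraries with the second, so the 3 sets of values are not independent of each other. Here 5 of the 9 genes passed, where 35.4% of all genes did: Ccn4 and Wwtr1 were higher (2 of 9, against 19.0% of all genes) and Ccn1, Ccn3 and Amotl2 were lower (3 of 9, against 16.3% of all genes). The medians were -0.12 for the 9 genes and -0.01 for all genes.

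Ccn4 was higher in CB1R KO bleomycin than in Control by 1.72 on the log2 scale (SE 0.30, edgeR adjusted p = 0.000657), beside 2.60 for WT bleomycin, and the lowest CB1R KO library, at 19.5 CPM, was above the highest control, at 11.7 CPM. For Ccn2 the 2 values were 0.16 (interval -0.20 to 0.52, edgeR adjusted p = 0.528) and 0.90. The Ccn2 estimate against Control leans on Control 3: without that library it was -0.02. For Ankrd1 the values were -0.22 and 0.53, and the first was 0.05 without Control 26 and 0.06 in the lower-case libraries.

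Ccn3 fell by 0.71 in CB1R KO against Control (SE 0.19, edgeR adjusted p = 0.0103), with all 4 CB1R KO libraries below all controls, and passed in all 25 alternatives. Ccn1 fell by 0.52 (SE 0.17, edgeR adjusted p = 0.0271) with overlapping ranges. Of 25 alternatives 16 kept it past the threshold, and it was lost without Control 26 (-0.36, adjusted p = 0.094) and in the lower-case libraries (-0.36, adjusted p = 0.105), with a range of adjusted p from 0.00713 to 0.105. Other single libraries whose omission ended the Ccn1 call were Control 3 and CB1R KO 9, 10 and 11, with log2 fold changes between -0.52 and -0.45. Amotl2 was at 209, 186, 176 and 158 CPM in CB1R KO 8, 9, 10 and 11. It fell by 0.48 against Control (SE 0.13, edgeR adjusted p = 0.00898), and limma on log2 TPM gave a smaller change of -0.30 (adjusted p = 0.10). Wwtr1 rose by 0.23 (SE 0.06, edgeR adjusted p = 0.00806) and its 224, 223, 211 and 209 CPM in the CB1R KO libraries all lay above the controls. Yap1, at 143, 140.5, 129 and 139 CPM, differed from Control by -0.12 (SE 0.05, edgeR adjusted p = 0.105), and by -0.15 without Control 21 (adjusted p = 0.0491, in a range up to 0.681).

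Levels can be set side by side between genes only per length, as TPM. In Control lungs Ccn1 was the most abundant of the 9 at 277 ± 63.9 TPM (SD, n = 4), followed by Ccn2 at 229 ± 63.2 TPM, and the ranges of these 2 overlapped. Amotl2 followed at 95.3 ± 18.5 TPM. Wwtr1, Yap1 and Ccn5 formed a group of neighbours with overlapping ranges at 57.2, 53.8 and 49.8 TPM. Ankrd1 was at 23.4 ± 8.00 TPM, Ccn3 at 6.53 ± 0.293 TPM and Ccn4 lowest at 2.49 ± 0.861 TPM, each apart from its neighbour. In WT bleomycin lungs Ccn2 came first at 435 ± 56.3 TPM (SD, n = 5), apart from Ccn1 at 269.8 ± 52.5 TPM, and Ccn4 at 14.7 ± 1.94 TPM stood above Ccn3 at 4.93 ± 0.870 TPM. The CB1R KO lungs kept the order of the WT bleomycin lungs, but with Ccn2 at 269.9 ± 34.7 TPM (SD, n = 4) and Ccn1 at 205 ± 27.9 TPM, whose ranges overlapped.

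**Figure D3:**
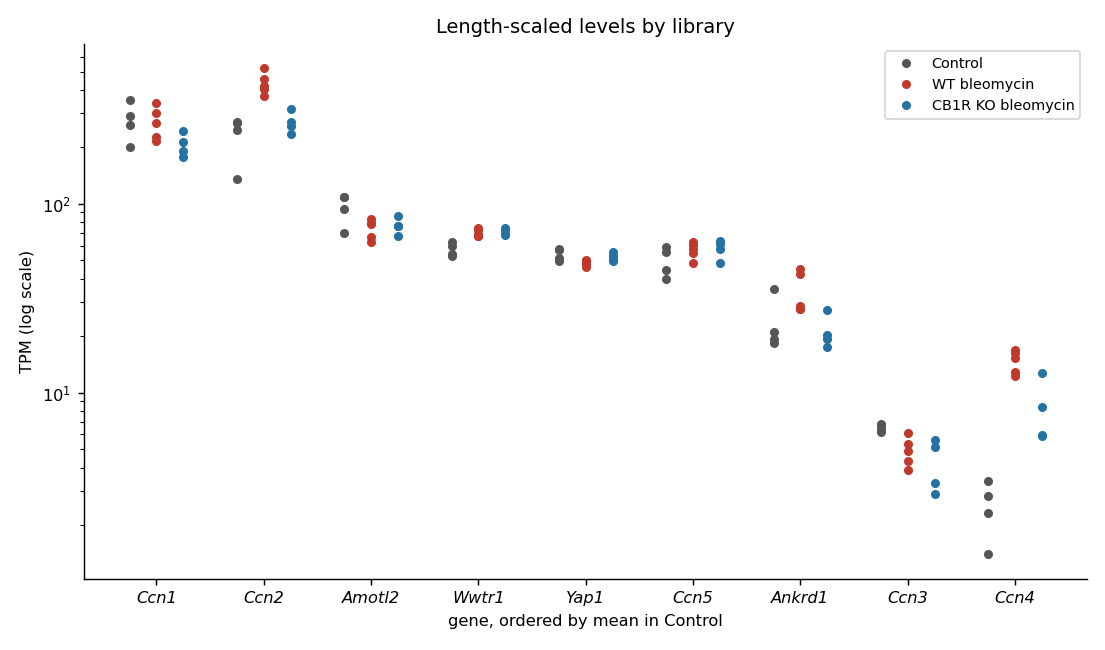
TPM on a log axis for the 9 genes, ordered by their mean in Control, with 1 point per library and the 3 groups side by side. Ccn4 is the lowest gene in Control (1.39 to 3.42 TPM) and lies above Ccn3 in both bleomycin groups, and the ranges of Ccn2 and Ccn1 are apart in WT bleomycin and overlap in the other 2 groups.

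Ratios within a library remove what the 2 genes share, such as the library total. The TPM ratio of Wwtr1 to Yap1 was 1.03, 1.06, 1.11 and 1.05 in Control 3, 21, 24 and 26. It was 1.44, 1.49, 1.36, 1.44 and 1.47 in WT bleomycin 4, 2, 5, 4-B2 and 7, and 1.35, 1.38, 1.38 and 1.31 in CB1R KO 8, 9, 10 and 11. Wwtr1 was thus above Yap1 in 13 of 13 libraries. The ratio was higher in 9 of 9 bleomycin lungs than in any control, and the 2 bleomycin groups overlapped. It combines the moves of Wwtr1 and Yap1 given above and is not a separate result. The Ccn2 to Ccn1 ratio was 0.464 to 1.33 in Control, 1.09 to 2.11 in WT bleomycin and 0.969 to 1.5 in CB1R KO. Ccn2 exceeded Ccn1 in 1 of 4, 5 of 5 and 3 of 4 of these libraries. The ratio of Ccn4 to Ccn5 was 0.0349 to 0.0633 in Control, 0.214 to 0.346 in WT bleomycin and 0.104 to 0.199 in CB1R KO, 3 ranges that did not overlap. The Ccn4 to Ccn5 ratio combines the values of its 2 genes and is not a separate result. Ccn4 alone overlapped between the genotypes in TPM, with 12.7 TPM in CB1R KO 10 and a WT bleomycin minimum of 12.3 TPM. CB1R KO 10 also held the highest Ccn5 of all libraries, at 63.6 TPM. The share of all gene pairs with ranges apart was not counted.

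**Figure D4:**
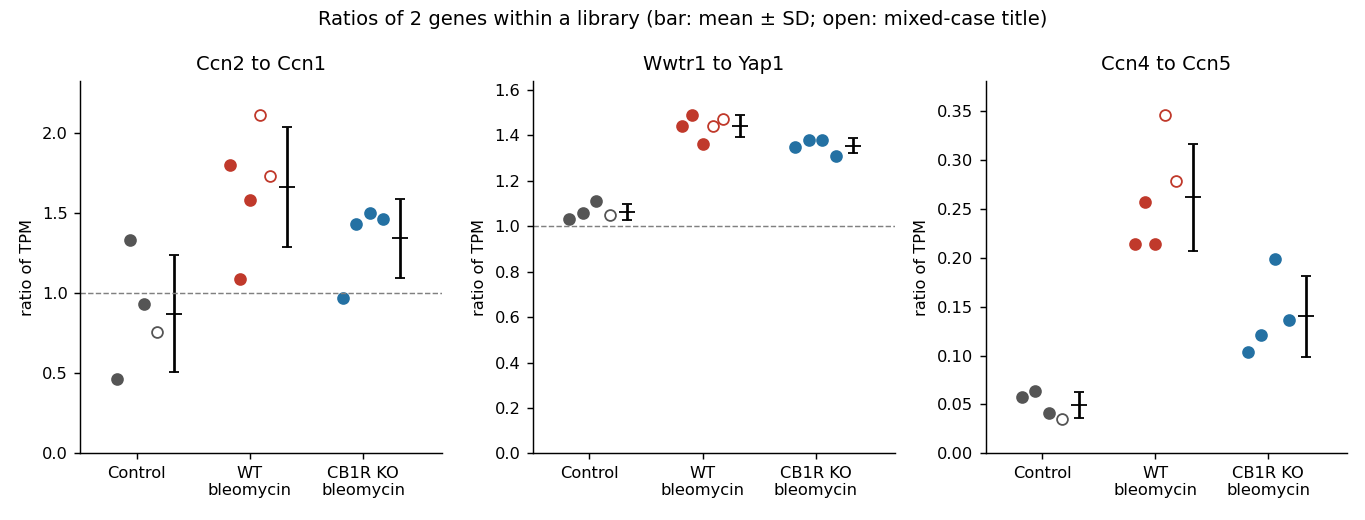
TPM ratios of 2 genes within each library, from 0, with mean ± SD as the black bar, open points for mixed-case titles and a dashed line at equal levels in the first 2 panels. The Wwtr1 to Yap1 ratio is 1.03 to 1.11 in Control and 1.31 to 1.49 in the 9 bleomycin lungs. The highest Ccn4 to Ccn5 ratio in CB1R KO, 0.199, lies just under the lowest in WT bleomycin, 0.214.

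Around the 9 genes, the pathway was read from gene lists by the same test. The shares of all genes tested to set beside list counts at an adjusted p are 48.9% in WT bleomycin against Control (25.0% higher, 23.9% lower) and 0.979% between the genotypes. In CB1R KO against Control the share is 35.4% (19.0% higher, 16.3% lower). At an unadjusted p under 0.05, 9.08% of all genes were lower in CB1R KO than in WT bleomycin. Other shares at an unadjusted p were not counted. Among 15 Hippo kinases and adaptors, 2 rose and 6 fell between Control and WT bleomycin, 8 of 15 in all and near the share of all genes, and their median log2 fold change was -0.02. The largest changes were in Frmd6, a membrane scaffold (-0.82), in Stk4, the kinase MST1 (-0.71), and in Taok2, an upstream kinase (-0.59), with adjusted p of 2.93e-05, 5.57e-05 and 3.96e-05 in edgeR. Stk3, the paralog of Stk4, rose by 0.35 on the log2 scale, so that the 2 MST kinases moved in opposite directions. Between CB1R KO and WT bleomycin 0 of the 15 passed in edgeR, with 2 at an unadjusted p under 0.05. Against Control, the CB1R KO lungs again had 2 higher and 6 lower, led by Frmd6 (-0.63), Taok2 (-0.50) and Stk4 (-0.49).

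Of 8 TEAD factors and Vgll cofactors, 6 could be tested. Tead3 (0.54, adjusted p = 0.000697), Tead2 (0.53, adjusted p = 0.00397) and Vgll3 (0.44, adjusted p = 0.0115) rose in WT bleomycin against Control in edgeR, 3 of 6 where 25.0% of all genes rose, and none fell. In CB1R KO against WT bleomycin 0 of 6 passed in edgeR. Vgll3 (-0.39), Tead3 (-0.30) and Tead4 (-0.21) were lower at an unadjusted p under 0.05, where 9.08% of all genes were. Against Control 0 of 6 passed in CB1R KO lungs, with 3 at an unadjusted p under 0.05. Among 8 further proteins that bind or regulate YAP, besides Amotl2, 1 rose and 3 fell in WT bleomycin, about the 48.9% of all genes. Dchs1, a protocadherin, rose by 0.32. Ptpn14, a phosphatase that binds YAP, and Amotl1 fell by 0.34 and 0.25. None of the 8 passed between the genotypes in edgeR, and none had an unadjusted p under 0.05. In CB1R KO against Control 1 of the 8 rose, Dchs1 (0.23), and 2 fell, Ptpn14 (-0.32) and Amotl1 (-0.19).

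The target list held 22 genes, 4 of them among the 9. It shares Lats2 with the Hippo list, and Amotl2 and Ptpn14 with the list of proteins that bind or regulate YAP. The lists are therefore not independent of each other. In WT bleomycin 10 rose and 8 fell against Control, 18 of 22 in all, where 48.9% of all genes passed (25.0% higher, 23.9% lower). The median log2 fold change of the list was 0.29. The list therefore did not move one way. Ccdc80, a matrix protein, rose most (2.09, SE 0.22, edgeR adjusted p = 4.07e-06), from 42.3 ± 11.7 CPM (SD, n = 4) to 180.1 ± 30.3 CPM (SD, n = 5). Fjx1, a secreted kinase relative, rose by 1.40 on the log2 scale (SE 0.18, edgeR adjusted p = 1.86e-05). Igfbp3, an insulin-like growth factor binding protein, fell most (-2.67, SE 0.18, edgeR adjusted p = 9.8e-08), from 95.8 ± 29.3 CPM (SD, n = 4) to 15.1 ± 1.64 CPM (SD, n = 5).

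Between CB1R KO and WT bleomycin 0 of the 22 target genes passed in edgeR. At an unadjusted p under 0.05 there were 10, of which 9 were lower in CB1R KO, where 9.08% of all genes were, and 1, Igfbp3, was higher (0.63, SE 0.18, adjusted p = 0.108). DESeq2 on all libraries called 5 of the 22, and 4.10% of all genes it tested: Ccn2, Ankrd1, F3, Fjx1 and Igfbp3. F3, tissue factor, was at 103 ± 23.9 CPM (SD, n = 5) in WT bleomycin and at 70.8 ± 7.48 CPM (SD, n = 4) in CB1R KO. The median of the list was -0.13, beside 0.00 for all genes. In CB1R KO against Control 6 of the 22 rose and 8 fell, where 19.0% and 16.3% of all genes did, led by Igfbp3 (-2.04), Ccdc80 (1.51) and Fjx1 (0.84).

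**Figure D5:**
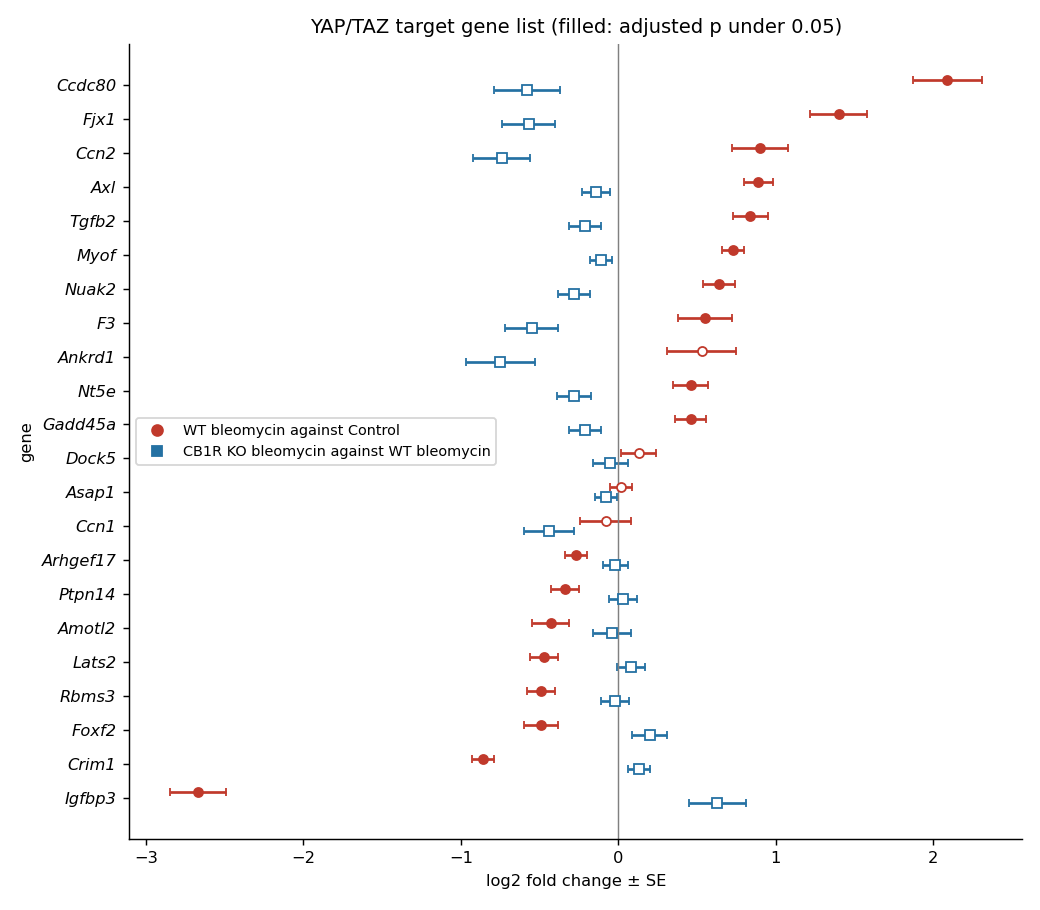
Log2 fold change with its standard error for the 22 genes of the YAP/TAZ target list, ordered by WT bleomycin against Control (circles), with CB1R KO against WT bleomycin as squares and filled symbols for an adjusted p under 0.05 in edgeR. The circles run from -2.67 (Igfbp3) to 2.09 (Ccdc80), and all squares are open, with Ankrd1 and Ccn2 lowest at -0.75 and -0.74.

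For each of the 9 genes the 2 tested genes with the most similar profile were found, by the root mean square difference in log2 CPM over the 13 libraries after subtracting each gene's control mean. For Ccn2 these were Tiam2 (0.213) and Plk3 (0.223), whose log2 fold changes were 0.89 and 0.88 in WT bleomycin against Control and -0.63 and -0.66 in CB1R KO against WT bleomycin. For Ccn4 they were Gjb5 (0.233) and Serpina3i (0.292). Ankrd1 was nearest to Coro2a (0.229) and to F3 (0.243), itself a gene of the target list. Ccn1 was nearest to Dkkl1 (0.179) and Tspoap1 (0.209), and Ccn3 to Sox5 (0.160) and Klf8 (0.161). The remaining genes had closer neighbours. Yap1 had Acin1 (0.0454) and Atxn7l3b (0.0512), and Wwtr1 had Septin2 (0.0517) and 9530068E07Rik (0.0584). Ccn5 had Zfp282 and Sgk3 (0.10 each), and Amotl2 had AW554918 (0.119) and Prr12 (0.131).

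Markers of fibroblasts and smooth muscle, cells known to make CCN proteins, are given beside these values. Of 7 fibroblast markers, 5 rose in WT bleomycin against Control, where 25.0% of all genes rose, led by Col1a1 (3.13) and Col3a1 (2.80), with summed levels of 727 to 825 TPM in Control, 2258 to 2966 TPM in WT bleomycin and 1691 to 2482 TPM in CB1R KO. Between the genotypes all 7 had a negative log2 fold change and 0 passed in edgeR. At an unadjusted p under 0.05, 4 were lower in CB1R KO, where 9.08% of all genes were. The smooth muscle sum of 5 markers was 487 to 598 TPM in Control, 619 to 939 TPM in WT bleomycin and 532 to 621 TPM in CB1R KO, and its members did not move together. In WT bleomycin against Control, Tagln (0.80) and Acta2 (0.61) rose, Myh11 fell (-0.58, edgeR adjusted p = 0.00589), and Des (0.10) and Cnn1 (-0.22) did not pass. Between the genotypes 1 of the 5 passed in edgeR, where 0.979% of all genes did. It was Tagln, lower in CB1R KO (-0.63, edgeR adjusted p = 0.0177). Acta2 was at -0.53 (edgeR adjusted p = 0.0728) and Myh11 at 0.00. The 2 fibroblast markers that did not pass between Control and WT bleomycin were Pdgfra (-0.07) and Dcn (0.06). The part of these cells in the Ccn2 and Ccn4 values was not tested.

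Ccn1 and Ccn2 are early-response genes, so 10 immediate early genes are given as well. Their sum was 932 to 1561 TPM in Control, 793 to 1330.1 TPM in WT bleomycin and 873 to 1103 TPM in CB1R KO, ranges that overlapped, and the highest value was in Control 26, which also held the highest Ccn1. The part of such a response in the Ccn1 and Ccn2 values was not tested. In WT bleomycin against Control 2 rose (Egr2 and Junb) and 2 fell (Dusp1 and Jun). Between the genotypes 0 passed in edgeR. At an unadjusted p under 0.05, 2 were lower in CB1R KO, where 9.08% of all genes were. The remaining lists moved with bleomycin as follows, in WT bleomycin against Control, where 25.0% of all genes rose and 23.9% fell: 4 of 5 type II cell markers fell, of 5 type I cell markers 1 rose and 2 fell, of 5 mesothelial markers 1 rose and 2 fell, of 5 leukocyte markers 1 rose and 2 fell, 2 of 4 tested adipocyte markers fell and 1 of 3 tested skeletal muscle markers fell. Between the genotypes 0.979% of all genes passed in edgeR. There 3 of 5 type II cell markers and 1 of 5 endothelial markers were higher in CB1R KO. None of the mesothelial, type I cell, leukocyte, adipocyte, cardiac or skeletal muscle markers passed.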

How the data were processed

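Reads were quantified with Kallisto on Ensembl transcripts (GRCm39 in the submitters' processing notes) by the authors, who deposited, for every gene symbol, the estimated count and the TPM as sums over its protein-coding transcripts, and the counts are not normalized between libraries. Per the labels, poly(A) libraries were made with NEBNext Ultra II and sequenced in pairs on an Illumina HiSeq. Of the count values, 70.5% were not whole. Among the TPM columns 1 matched no sample and was not used. The 13 tables of single samples repeated the same values.

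Estimated counts were rounded, filtered with filterByExpr, scaled by TMM and fitted in edgeR 4.0.16 under R 4.3.3 (glmQLFit and glmQLFTest), with all 13 libraries, 1 coefficient per group and no covariates. P-values were adjusted by Benjamini-Hochberg over 15315 genes at 0.05. Standard errors are the log2 fold change divided by the root of its F statistic, and 95% intervals take the normal quantile of them. Profiles used log2 CPM with a prior count of 2. Python 3.11.15, pandas 2.3.3, numpy 2.4.6 and matplotlib 3.10.9 made the tables and plots. The fit was also run on simulated counts. The outcome is not given here, so that run does not show how the fit performs at the sizes of change reported.

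The genes, gene lists and tests were chosen with earlier results of these data known. Named were the 9 genes, the 3 list genes with the largest called change per list and comparison, and the 2 genes nearest in profile, and further list genes named were chosen after their values were seen. The 25 alternatives were no filter, a stricter filter, RLE and upper-quartile scaling, DESeq2 1.42.0 and edgeR on 2 groups, DESeq2 on all libraries, limma 3.58.1 on log2(TPM + 1) and log2(TPM + 0.1), title style as a term, lower-case titles alone, CB1R KO 11 thinned, and each library left out. Each library is 1 mouse, and total counts of 14615904 or more per library bound the counting error only.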

Additional observations from a re-analysis of the deposited data

Results flagged for a closer look

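Ankrd1 in Control 26 was flagged because it lay far from the other controls: 46.1 CPM, against 23.7 to 26.8 CPM in Control 3, 21 and 24. Its gap to the nearest of them was 0.859 of the range of the group, above the critical value of 0.829 for 4 samples. The log2 fold change of Ankrd1 in WT bleomycin against Control was 0.53 with this library and 0.80 without it, and in CB1R KO against Control it was -0.22 with it and 0.05 without it. Control 26 is 1 of the 3 libraries with a mixed-case title.

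The ratio of Ccn2 to Ccn1 in CB1R KO 8 was flagged for the same reason: 0.969, against 1.43 to 1.5 in the other 3 CB1R KO libraries, with a gap of 0.865 of the range. CB1R KO 8 held the lowest Ccn2 (338 CPM) and the highest Ccn1 (293 CPM) of its group.

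In all, 36 sets of values were examined in this way, the 9 genes and 3 ratios in 3 groups, and chance flags about 1 in 20 such groups.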

How the results depend on the processing

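Of 27 log2 fold changes (9 genes in 3 comparisons), 21 kept their sign in all 25 alternatives. The calls between CB1R KO and WT bleomycin depended most on the fit. Against 0 as reported, DESeq2 on all libraries called 2 of the 9 genes, DESeq2 on the 2 groups 4 and edgeR on the 2 groups 1, and leaving out single libraries gave 0 to 2 (1 without Control 3, 2 without CB1R KO 10). For the 22 target genes the same fits called 5, 6 and 1 against 0, and leaving out single libraries gave 0 to 3. Among the alternatives, the share of all genes called was counted only for DESeq2 on all libraries between the genotypes (4.10%). For CB1R KO against Control, limma on log2 TPM called 3 of the 9 genes with either pseudocount, against 5. The cause of these differences was not tested.

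Signs turned for 6 values, none of which passed the test. Ccn1 in WT bleomycin against Control (-0.08) was 0.10 in the lower-case libraries and lay between -0.20 and 0.08 on leaving out 1 library at a time. In CB1R KO against Control, Ccn2 (0.16) lay between -0.02 and 0.25 on the same omissions. Ankrd1 in the same comparison (-0.22) was 0.02 with title style as a term and 0.06 in the lower-case libraries, and between -0.36 and 0.05 on them. In CB1R KO against WT bleomycin, limma gave 0.02 for Ccn5, 0.02 for Wwtr1 and 0.05 for Amotl2, and leaving out single libraries gave -0.05 to 0.06 for Ccn5 and -0.12 to 0.02 for Amotl2.

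No paired analysis was possible because the groups share no mouse number. With 4 or 5 mice a group, the interval of Ccn4 between the genotypes was as wide as -1.41 to -0.36. The lowest estimated count of any of the 9 genes was 51.1, for Ccn4 in Control 26, and CB1R KO 11 thinned to the median total of the other CB1R KO libraries was the only test of depth. Ccn6 could not be tested.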
